A study of Mus musculus with 2 samples.

Results

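The subject is the family of AP-1 transcription factors in sorted mouse bone marrow cells, represented by 10 genes: Fos, Fosb, Fosl1 and Fosl2 of the Fos family, Jun, Junb and Jund of the Jun family, and the related factors Batf, Batf3 and Atf3. They were taken by gene symbol from the 19935 genes that the array measured, using only probe sets annotated to exactly 1 gene. Each of the 10 genes had 1 such probe set, so there was no second probe set of any of them to compare with. Of the 10, 9 passed a filter on level, a higher value of at least 93.6 (the median intensity over the 2 arrays together), and Fosl1 did not.

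Both groups came from the bone marrow of ddY mice (outbred) aged 6 weeks, with no treatment or genetic change given in the labels. One population was RANKhighFmslow, sorted for much surface RANK (the receptor of the osteoclast differentiation factor RANKL) and little c-Fms (the receptor of M-CSF). The other, RANKlowFmshigh, was sorted for the opposite pattern. Each was measured on 1 array, and the number of mice behind an array is not given in the sources used here, so every value is a single measurement without replicate error, no difference has a replicate check, and no test was possible. The populations are called RANKhigh and c-Fmshigh, and a log2 difference is the log2 intensity in RANKhigh minus that in c-Fmshigh.

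AP-1 is a dimer of proteins that hold each other through a leucine zipper and grip DNA through the basic stretch beside it. Fos proteins need a Jun partner, Jun proteins also pair with each other, and Batf proteins pair with Jun and bind DNA together with IRF factors. In osteoclast precursors RANK signalling raises c-Fos, which is needed to induce NFATc1, and mice without c-Fos form no osteoclasts and instead keep macrophages. Many AP-1 genes are also immediate early genes, transcribed within minutes of a stimulus from promoters that kinase-controlled factors already occupy.

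The proximal promoters are shown first because several AP-1 genes are known to be controlled by AP-1 and CREB/ATF proteins themselves. RefSeq promoter sequences (GRCm38.p6) were matched for 9 of the 10 genes. Fosl1 had no match. The last 120 bases before the transcription start are printed 5′ to 3′ on the gene's strand for 6 of them, those with the letters TGACG or TGACATCA on either strand. Capitals mark these letters, or CGTCA where TGACG lies on the opposite strand.
Fos, chr12:85473770-85473889, plus strand: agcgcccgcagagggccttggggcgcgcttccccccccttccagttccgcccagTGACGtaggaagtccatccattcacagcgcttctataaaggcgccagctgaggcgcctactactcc
Fosb, chr7:19310046-19310165, minus strand: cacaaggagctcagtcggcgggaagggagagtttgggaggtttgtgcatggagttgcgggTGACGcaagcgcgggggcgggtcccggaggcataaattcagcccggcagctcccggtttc
Jun, chr4:95052223-95052342, minus strand: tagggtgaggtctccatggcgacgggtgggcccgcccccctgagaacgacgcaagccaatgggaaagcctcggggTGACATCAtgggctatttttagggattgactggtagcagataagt
Junb, chr8:84978749-84978868, minus strand: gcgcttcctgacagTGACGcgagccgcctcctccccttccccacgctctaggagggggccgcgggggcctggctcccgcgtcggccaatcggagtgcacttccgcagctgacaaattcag
Batf, chr12:85686600-85686719, plus strand: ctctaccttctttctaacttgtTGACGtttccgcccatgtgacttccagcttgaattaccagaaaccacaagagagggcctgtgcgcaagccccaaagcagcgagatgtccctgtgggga
Atf3, chr1:191183334-191183453, minus strand: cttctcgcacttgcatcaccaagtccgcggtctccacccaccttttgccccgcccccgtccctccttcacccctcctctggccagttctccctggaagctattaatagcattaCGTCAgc

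Motifs were searched on both strands of the 250 bases before the start, in these 9 promoters and in all 32851 promoters of the table. The full AP-1 site TGACTCA was in 0 of the 9 promoters and in 4.46% of all promoters. The full cyclic AMP response element TGACGTCA was in 0 of 9, against 1.55% of all, and the CArG box, the core of the serum response element, in 0 of 9, against 1.47% of all. The GC box GGGCGG was in 7 of 9, all but Junb and Jund, against 32.7% of all. The TATA box letters TATAA were in the Fos promoter alone, starting 33 bases before the start, against 22.8% of all. The half-site TGACG, which is part of the full element, was in the promoters of Fos, Fosb, Junb, Batf and Atf3 (5 of 9) and in 17.8% of all. TGACATCA was in the Jun promoter alone, starting 45 bases before the start, and in 2.93% of all. The last 2 letter strings were chosen after the promoters had been read. The half-site was present in promoters of genes with higher values in RANKhigh (Fosb and Junb) and of genes with higher values in c-Fmshigh (Fos, Batf and Atf3). A match describes letters only and is not evidence of binding. The absence of a motif, the CArG box included, holds only for these 250 bases, since sequence further upstream was not searched.

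The labels were checked against the transcripts of the sorted receptors. Csf1r, which encodes c-Fms, stood at 164 in RANKhigh and 821 in c-Fmshigh, the order of the labels. Tnfrsf11a, which encodes RANK, stood at 104 and 119 (log2 difference -0.20), so that its transcript was not higher in RANKhigh. As a guide to background, the 95th percentile of 1189 olfactory and vomeronasal receptor genes was 83.8 in RANKhigh and 81.8 in c-Fmshigh. Both Tnfrsf11a values lay not far above this guide, and the label refers to surface protein, which the array does not measure. Among the 11089 genes above the level filter, 4.34% differed by 2-fold or more with the higher value in RANKhigh and 4.26% with the higher value in c-Fmshigh. At any size, 5383 of them had the higher value in RANKhigh and 5661 in c-Fmshigh, and the median log2 difference was -0.01.

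The AP-1 genes did not move as a block. Of the 9 that passed the level filter, 4 had higher values in RANKhigh (Fosb, Jun, Junb and Jund) and 5 had higher values in c-Fmshigh (Fos, Fosl2, Batf, Batf3 and Atf3). At 2-fold or more, 1 was higher (Fosb) and 1 was lower (Atf3) in RANKhigh. Set against the background of 4.34% and 4.26%, 1 gene in each direction among 9 is too few to read as a property of the family. At 1.5-fold or more, Atf3, Batf, Fosl2 and Batf3 were lower in RANKhigh (4 of 9, against 12.4% of the genes above the filter) and Fosb was higher (1 of 9, against 10.5%). The 1.5-fold limit belongs to the alternatives, and the members were chosen with earlier results known, so the first share describes these arrays and is no test. With 50 added to every intensity, Fosl2 (-0.55) and Batf3 (-0.44) no longer reached 1.5-fold. The median log2 difference of all 10 was -0.14, and it was -0.33 over the 9 that passed the level filter. In bulk samples such as these, fewer cells of a type and less RNA per cell cannot be told apart.

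**Figure D1:**
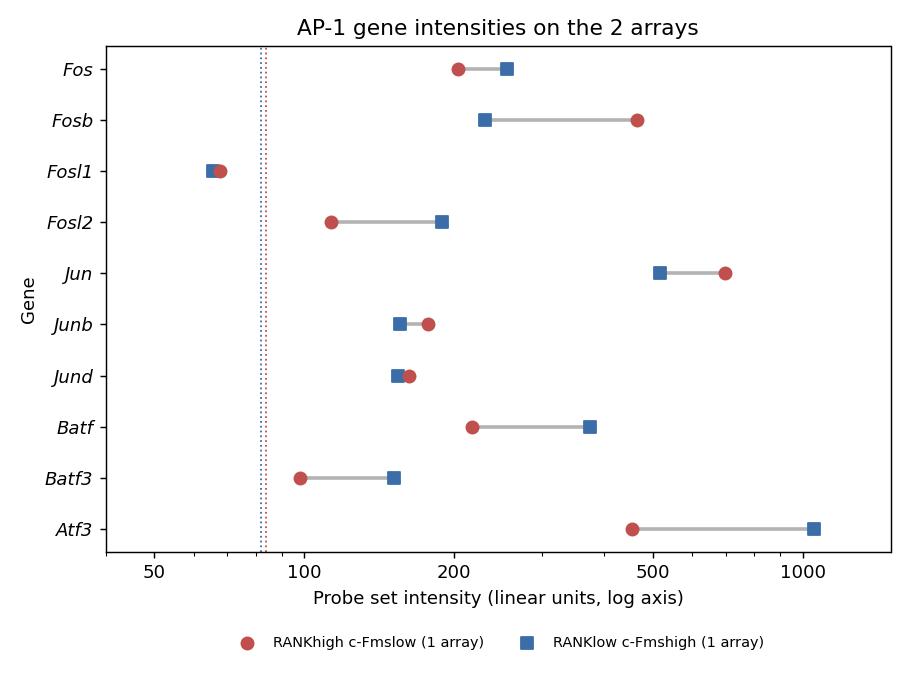
Intensity of each AP-1 gene (linear units on a log axis) in RANKhigh c-Fmslow cells (red circles) and RANKlow c-Fmshigh cells (blue squares), 1 array each, with no error bars because there are no replicates. Dotted lines mark the 95th percentile of the chemoreceptor genes on each array (83.8 and 81.8). Only Fosl1 lies left of them, and the widest gaps are those of Atf3 (454 against 1052) and Fosb (464 against 230.0). Positions of different genes are not comparable as amounts of RNA.

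The Fos family was divided. Fos, which encodes c-Fos, the member required for osteoclast formation, had an intensity of 203 in RANKhigh and 255 in c-Fmshigh. Its log2 difference was -0.33 (1.25-fold lower in RANKhigh), and 23.5% of the genes that passed the level filter were at least as much lower. The Fos transcript was thus above the chemoreceptor guide in both populations and was not higher in the population labelled RANKhigh.

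Fosb, whose protein and short splice form pair with Jun proteins in the same way, had an intensity of 464 in RANKhigh and 230.0 in c-Fmshigh. The log2 difference was 1.01 (2.02-fold), just past the 2-fold rule, and 4.27% of genes that passed the level filter were at least as much higher. It no longer reached 2-fold when each array was centred on its median (0.98) or when 50 was added to every intensity (0.88). The array does not separate the full-length from the short splice form of Fosb in these values, which are 1 per gene.

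Fosl2, which encodes Fra-2, had an intensity of 113 in RANKhigh and 189 in c-Fmshigh, a log2 difference of -0.74 (1.67-fold lower). Its RANKhigh value was only 1.35 times the chemoreceptor guide. Fosl1, which encodes Fra-1, a c-Fos target able to take over some of its roles in osteoclast formation, stood at 67.7 and 65.5. Both Fosl1 values lay below the chemoreceptor guide, so it cannot be said whether its transcript was present or differed. Fos and Fosl2 therefore had the opposite sign to Fosb under every scaling tried.

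The 3 Jun genes, which supply the partners that Fos and Batf proteins need, had slightly higher values in RANKhigh, and 0 of 3 reached 2-fold. Jun, which encodes c-Jun, the strongest activator of the Jun family and a target of JNK, had an intensity of 699 in RANKhigh and 518 in c-Fmshigh. Its log2 difference was 0.43 (1.35-fold), and 15.3% of genes that passed the level filter were at least as much higher. Junb, a weaker activator that can oppose c-Jun, stood at 177 and 156, a log2 difference of 0.19. Jund, the member that resting cells express most steadily, stood at 163 and 154, a log2 difference of 0.07. The differences of Junb and Jund were no larger than 0.19, the median gap between the log2 differences of a gene's 2 probe sets on these arrays (558 genes that had exactly 2). The 90th percentile of that gap was 0.67, and the differences of Jun (0.43), Fos (-0.33) and Batf3 (-0.63) were also smaller in size than this. The gap compares probe sets on the same 2 arrays, so it does not measure error between arrays or samples. The signs of all 3 Jun genes stayed the same under median centring and quantile normalization.

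Batf and Batf3, small proteins that have a zipper but no activation domain and so lend Jun a different set of targets, both had lower values in RANKhigh. Batf, which acts in T and B cells and also in myeloid cells, had an intensity of 217 in RANKhigh and 375 in c-Fmshigh. The log2 difference was -0.79 (1.73-fold lower), and 7.28% of genes that passed the level filter were at least as much lower. Batf3, required for type 1 conventional dendritic cells, stood at 98.1 in RANKhigh, close to the chemoreceptor guide of 83.8, and at 151 in c-Fmshigh. Its log2 difference was -0.63 (1.54-fold lower).

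Atf3, a stress-induced factor that pairs with Jun proteins and restrains inflammatory genes in macrophages, had the largest difference of the 10. Its intensity was 454 in RANKhigh and 1052 in c-Fmshigh. The log2 difference was -1.21 (2.32-fold lower in RANKhigh), and 293 of 11089 genes (2.64%) were at least as much lower. Under the 3 alternative settings that could move its value (median centring, quantile normalization and an added 50), Atf3 remained at least 2-fold lower, from -1.24 to -1.12.

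**Figure D2:**
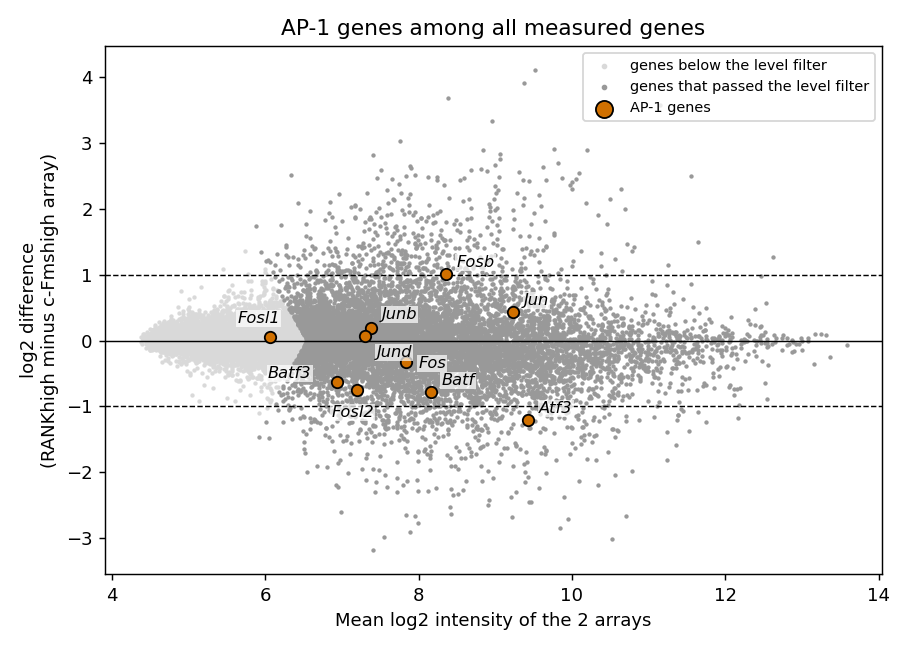
Log2 difference (RANKhigh minus c-Fmshigh) of every measured gene against its mean log2 intensity over both arrays, with the AP-1 genes in orange and the 2-fold limits dashed. Atf3 lies below the lower limit and Fosb on the upper one, and the other 8 lie between them, inside the spread of genes of like intensity.

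Genes around AP-1 were compared from lists of related factors, kinases and feedback genes. Other bZIP factors share the zipper fold, and several of them pair with Fos, Jun or Batf proteins. Among 21 measured, with a median log2 difference of 0.09, 1 was higher in RANKhigh by 2-fold or more and 1 was lower to that extent. Of all genes above the level filter, 4.34% were higher and 4.26% lower, so both counts are near the background. The higher one was Bach2, a repressor that binds sites overlapping those of AP-1 and is used by B cells (378 against 114, 3.31-fold). The lower one was Nfil3, a repressor needed for innate lymphoid cells (474 against 1010.0, 2.13-fold). Ddit3, the ER stress factor CHOP, stood at 934 against 541 (log2 difference 0.79), and Bach1, a heme-regulated repressor, at 239 against 404 (-0.76). Jdp2, a Jun dimerization partner that acts in osteoclast formation and is named here after its values were seen, stood at 97.4 and 89.4, near the guide on both arrays.

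In the MAP kinase cascade, which phosphorylates c-Jun and c-Fos, 0 of the 17 genes that passed the level filter were 2-fold apart. Lower values in RANKhigh were seen for 13 of them and higher values for 4. Of all 11089 genes above the filter, 5661 had lower values in RANKhigh and 5383 higher, and 4.26% and 4.34% were so by 2-fold or more. The median over the 18 measured genes of the cascade was -0.35. Map2k6, which activates p38, had the largest difference (140 against 262, log2 difference -0.91). Mapk14, which encodes p38 alpha, stood at 453 against 775 (-0.77) and Map2k1, which encodes MEK1, at 234 against 349 (-0.57). Map2k2, which encodes MEK2, differed in the other direction (220.4 against 128, 0.78). The array measures transcripts and gives no information on kinase activity.

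Immediate early genes that share their mode of induction with Fos and Jun had differences of both signs, as the AP-1 genes had. Of 13, all above the level filter, 7 had higher values in RANKhigh and 6 had lower values. At 2-fold or more, 2 were higher (against 4.34% of all genes above the filter) and 0 were lower (against 4.26%). These counts are too few to read as a property of the list. Egr1, a zinc finger factor induced through the serum response element, had an intensity of 309 in RANKhigh and 122 in c-Fmshigh (2.54-fold), and the stress-induced gene Ier3 had 327 and 155 (2.11-fold). Klf2 (318 against 177) and Egr2 (184 against 105) lay inside 2-fold. The list's median was 0.20. Those with lower values in RANKhigh lay between -0.31 and -0.08, and Fos was at -0.33.

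Feedback and turnover genes, which switch the kinases off or remove AP-1 mRNA and protein, had a median of 0.31 over 12 genes. By 2-fold or more, 2 were higher in RANKhigh (against 4.34% of all genes above the level filter) and 0 were lower (against 4.26%). These 2 were Zfp36l1, an mRNA decay factor (305 against 97.7, 3.12-fold), and Dusp10, a phosphatase of JNK and p38 (576 against 273, 2.11-fold). Dusp2 stood at 238 against 134 (0.82), whereas Itch, a ubiquitin ligase of Jun proteins, was lower at 967 against 1709 (-0.82). Of 7 serum response, ternary complex and MEF2 factors, the proteins that act on the Fos and Jun promoters, 1 was at least 2-fold higher, Mef2d (473 against 176, 2.69-fold). Beside the 4.34% of all genes, 1 of 7 is too few to read as a property of the list. Mef2a had the opposite sign (752 against 1348, -0.84). Srf, at 148 against 112 (0.41), and Elk3, at 389 against 482 (-0.31), differed less.

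Downstream, 11 genes that c-Fos induces during osteoclast formation, most of them through NFATc1, were examined. Only 4 passed the level filter. Nfatc1 itself stood at 192 in RANKhigh and 176 in c-Fmshigh (log2 difference 0.12). Acp5, tartrate-resistant acid phosphatase, stood at 546 and 188 (2.90-fold), and Mmp9, a gelatinase that neutrophils also make, at 277 and 75.2 (at least 3.38-fold, because the lower value was under the guide). The integrin gene Itgb3 stood at 131 and 209 (-0.67). The other 7 had a higher value under 93.6, Ifnb1 among them, the interferon gene by which c-Fos limits its own level. The median over all 11 was -0.03.

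**Figure D3:**
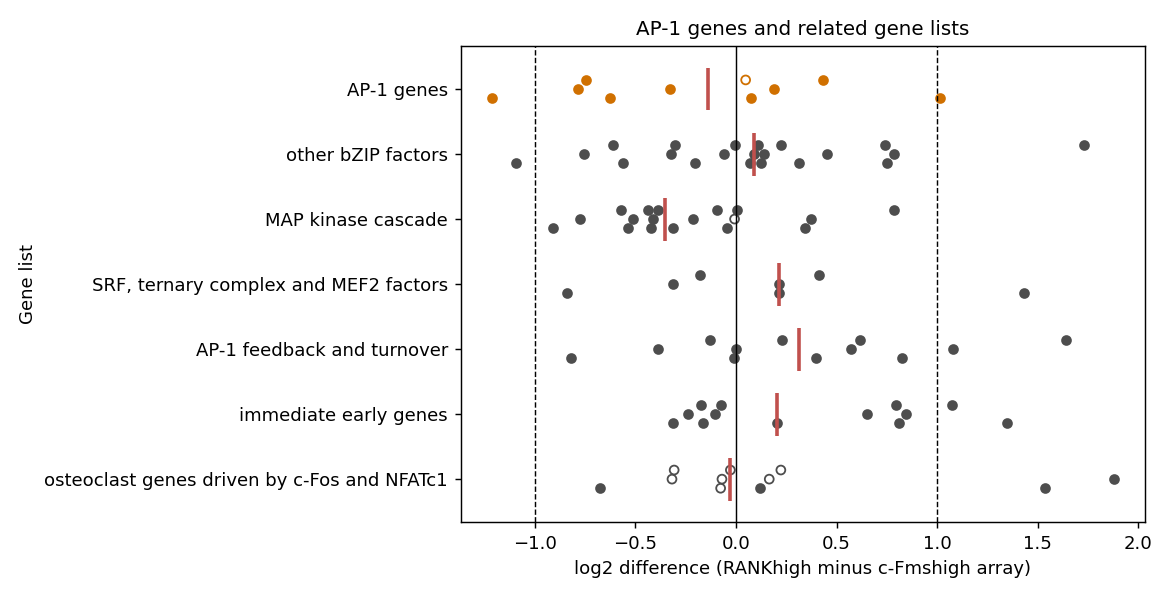
Log2 difference (RANKhigh minus c-Fmshigh) of the AP-1 genes (orange) and of the genes of 6 related lists (grey), 1 point per gene, with open points below the level filter, red bars at the list medians and dashed lines at 2-fold. The MAP kinase list has the lowest median (-0.35) and the feedback list the highest (0.31), and every list has points on both sides of 0.

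Markers of most cell types in the marrow also differed between the populations. All 9 measured monocyte markers had lower values in RANKhigh, 7 of them at least 2-fold, among them F13a1 (517 against 4177). Their median was -2.19, their summed intensity was 6998 against 23955, and the list includes the sort marker Csf1r. Of 7 macrophage markers, which myeloid cells of both kinds share in part, 3 were at least 2-fold lower, led by Msr1 (209 against 1119), and 1, C1qc, at least 2-fold higher (457 against 152), with sums of 2026 and 4318. The macrophage median was only -0.06, since the remaining 3 markers lay between -0.06 and 0.61. Atf3, Batf, Batf3, Fosl2 and Fos were lower in RANKhigh, as the monocyte list was. The part of cell composition in those 5 differences was not tested.

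The markers of other lineages differed in the opposite direction. Counts here are over all measured markers, and values under the chemoreceptor guide were raised to it first. By the same rule, 447 of all 19935 genes reached 2-fold in favour of RANKhigh and 441 in favour of c-Fmshigh. For neutrophils, 8 of 10 markers reached 2-fold in favour of RANKhigh, where the summed intensity was 43642 against 13949.6 in c-Fmshigh. The same held for 4 of 7 eosinophil markers (12331 against 1283) and for 4 of 6 basophil and mast cell markers (3106 against 749). It held for 7 of 7 B-lineage markers (10222 against 2658), 4 of 6 T cell markers (2608 against 792) and 6 of 6 erythroid markers (8186 against 1472). It also held for 3 of 5 NK cell markers (1626 against 630.0) and for 1 of 4 megakaryocyte markers (1987 against 936). Fosb and Jun were higher in RANKhigh together with these 8 lists, and so was Bach2 with the B-lineage list. Their part in the differences of Fosb, Jun and Bach2 was not tested.

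For Batf3 the dendritic cell markers are the closest reference. Of 6 markers of type 1 conventional dendritic cells, 3 passed the level filter. Clec9a, the receptor that defines them, was at least 1.63-fold lower in RANKhigh, at 61.1 against 136, whereas Cadm1 (290.3 against 239) and Wdfy4 (343 against 280.4) had log2 differences of 0.28 and 0.29. Xcr1, Itgae and Tlr3 lay under the guide in both populations, and the summed intensities of the 6 were 851 and 820.0. Of the 3 that passed, 1 was thus lower in RANKhigh, as Batf3 was, and 2 were higher. The part of dendritic cells in the difference of Batf3 was not tested. Of 6 general dendritic cell markers, Sirpa (711 against 1759) and Cd209a (76.6 against 332) were at least 2-fold lower and Ccr7 at least 2-fold higher (357 against 143), with sums of 1487 and 2788. The shares of all genes above the level filter were 4.26% lower and 4.34% higher.

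**Figure D4:**
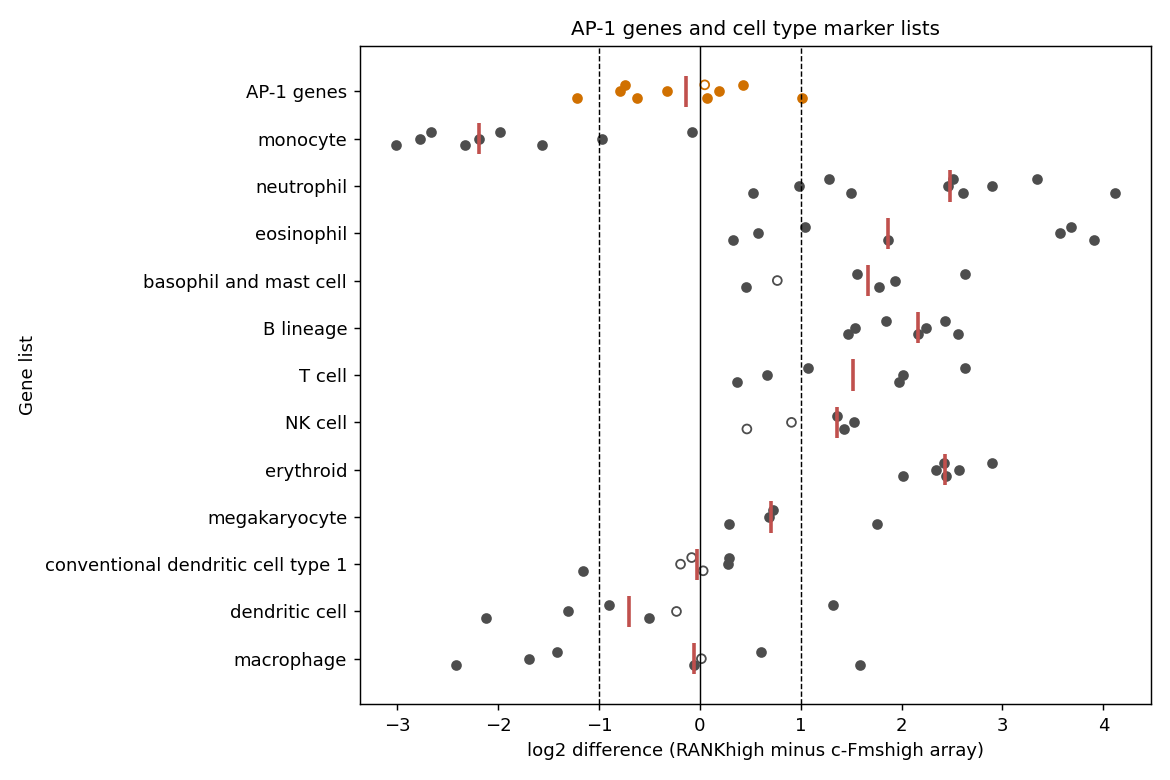
Log2 difference (RANKhigh minus c-Fmshigh) of the AP-1 genes (orange) and of the genes of 12 cell type marker lists (grey), 1 point per gene, with open points below the level filter, red bars at the list medians and dashed lines at 2-fold. Monocyte markers lie left of 0 (median -2.19), those of granulocytes, lymphocytes and erythroid cells right of it, and the AP-1 genes span -1.21 to 1.01.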

How the data were processed

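Total RNA of each sorted population was amplified and hybridised as biotin-labelled cDNA, per the labels' protocols. The authors deposited linear intensities, 1 per probe set and array (28815 probe sets). GCOS 1.4 and RMA are named in the submitters' processing notes, with no role or order, and the step back to a linear scale is not given in the sources used here. Intensities ran from 19.9 to 13198 and from 20.3 to 13453, with medians of 94.5 and 92.6.

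Intensities were put on the log2 scale with no pseudocount or further scaling, and probe sets naming 1 gene in the 2016 platform annotation (21780) were averaged per gene. All 10 Entrez identifiers matched the RefSeq gene table. Background correction and scaling between arrays, and so every difference, rest on the deposited values. Genes are counted at 2-fold or more among those whose higher value reached 93.6. Where the lower value lies under the chemoreceptor guide, a fold is the higher value over that guide, written "at least". Arrays have no depth, and their number limits the precision.

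Named are the 10 genes, the sort markers and, per list, up to 4 genes with the largest absolute difference that passed the filter. Several cell type lists are given by counts and sums alone. Jdp2, Ifnb1, Xcr1, Itgae, Tlr3 and Dusp5 fall outside this rule and were chosen after their values were seen. Members, lists, guide and alternatives were chosen with earlier results of these data known. Python 3.11.15, pandas 2.3.3 and numpy 2.4.6 were used.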

Additional observations from a re-analysis of the deposited data

How the results depend on the processing

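No paired analysis was possible because each group had 1 array. The values were recomputed under 6 settings: centring each array on its median, quantile normalization, the probe set with the highest level, also using probe sets that name several genes (0 of which named an AP-1 gene), a floor at the chemoreceptor guide, and an added 50. Only 3 of them, median centring, quantile normalization and the added 50, moved all 10 genes. The 2 probe set settings moved 0 of the 10, since each gene has 1 probe set, and the floor moved Fosl1 alone. None of the 10 log2 differences changed sign under the 3 settings that moved all of them. The number of AP-1 genes at least 2-fold higher in RANKhigh, 1 as reported, was 0 after median centring and 0 with the added 50, because Fosb fell short of 2-fold. The number at least 2-fold lower, 1 as reported, was 4 at a 1.5-fold limit, where 12.4% of all genes that passed the level filter were lower. With the added 50, Fosl2 (-0.55) and Batf3 (-0.44) lay short of that limit. The family's median stayed between -0.33 and -0.12. With 1 array per group, the error of every difference is unknown.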

Other observations

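The deposited table listed 245 of the 19935 genes at exactly the same intensity on both arrays, 45 of them above the level filter. The ERK phosphatase gene Dusp5 (149 on both) was the one among the AP-1 feedback genes.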
